A study of Mus musculus with 6 samples.

Results

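The genes described here encode the nuclear subunits of respiratory complexes III and IV and of complex V, the ATP synthase, in mouse gastrocnemius muscle. Members were taken by name: every row of the expression table whose symbol begins with Uqcr, with Atp5, or with Cox and a digit from 4 to 8. Rows with "-ps" in the symbol, 12 in number, were left out. This gave 45 of the 57010 rows: 8 for complex III, 19 for complex IV and 18 for complex V. The symbol rule takes no measured value into account. It misses Cyc1, the cytochrome c1 of complex III, which is given among the partner genes.

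Complex III passes electrons from ubiquinol to cytochrome c, and complex IV passes them on to oxygen. Both pump protons across the inner mitochondrial membrane, and the ATP synthase uses the return flow to make ATP. Each complex joins a few subunits encoded by the mitochondrial genome with many encoded in the nucleus. Several small subunits of complex IV exist as isoforms of separate genes, with Cox6a2, Cox7a1 and Cox8b as the forms of heart and skeletal muscle and Cox6a1, Cox7a2 and Cox8a as the forms of most other tissues.

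The 6 samples were gastrocnemius muscles of NSG mice (NOD/SCID/IL2Rγ-null), which lack mature lymphocytes. Every mouse carried a subcutaneous tumour on the left flank, grown with Matrigel from MDA-MB-231/Rab27a KD cells, a human breast cancer line with a knockdown of Rab27a, which acts in the release of exosomes. For the radiotherapy group (n = 3), each tumour was irradiated locally at about 800 mm3 with 10 Gy in 1 dose, and the muscle of the other side was taken 3 days later. The control group (n = 3) bore the same tumours without irradiation. Tumours without the knockdown and mice without a tumour were not analysed here, and the labels give neither age nor sex. The labels do not state whether each sample is a mouse of its own. If not, the p-values measure only a spread that may be technical.

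Values are TPM, a relative abundance per transcript length that sums to 1000000 in every library. TPM keeps no sequencing depth, so counting errors are unknown. The 6 libraries carried the 7 fast fibre markers at a summed 57086 to 103840 TPM, as a muscle rich in fast fibres would, and that sum was lower after radiotherapy (57086 to 85528 TPM) than in control (96952 to 103840 TPM). Erythroid markers were lower too, at 930 to 1618 TPM against 3352 to 7203 TPM, and the share of transcripts from the mitochondrial genome was higher, at 15.1 to 22.5% against 8.93 to 13.7% of all TPM. Leukocyte markers stood out in 1 library of each group, at 347 TPM in control 1 and 181 TPM in radiotherapy 3, with 32.0 to 50.2 TPM in the other 4 libraries. Fibro-adipogenic markers were highest in control 1, at 693 TPM against 235 to 377 TPM elsewhere, and Schwann cell markers in radiotherapy 3, at 438 TPM against 20.3 to 131 TPM elsewhere. The part of these differences in the results below was not tested. In bulk muscle, fewer cells of a type and less RNA per cell cannot be told apart.

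Of the 45 member rows, 41 reached 1 TPM in at least 3 samples and were tested. Cox7b2 and Cox8c, isoforms known from testis, and a second row named Atp5o were listed at 0 in every library. Cox6c2 was listed at 2.01 TPM in radiotherapy 2 and at 0 in the other 5 libraries. The tested members were among the abundant transcripts of the muscle: 35 averaged over 100 TPM and 17 over 1000 TPM. Together the members made up 4.17, 3.77 and 4.46% of all TPM in controls 1, 2 and 3 and 3.92, 3.93 and 3.38% in radiotherapy 1, 2 and 3, and the groups overlapped.

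**Figure D1:**
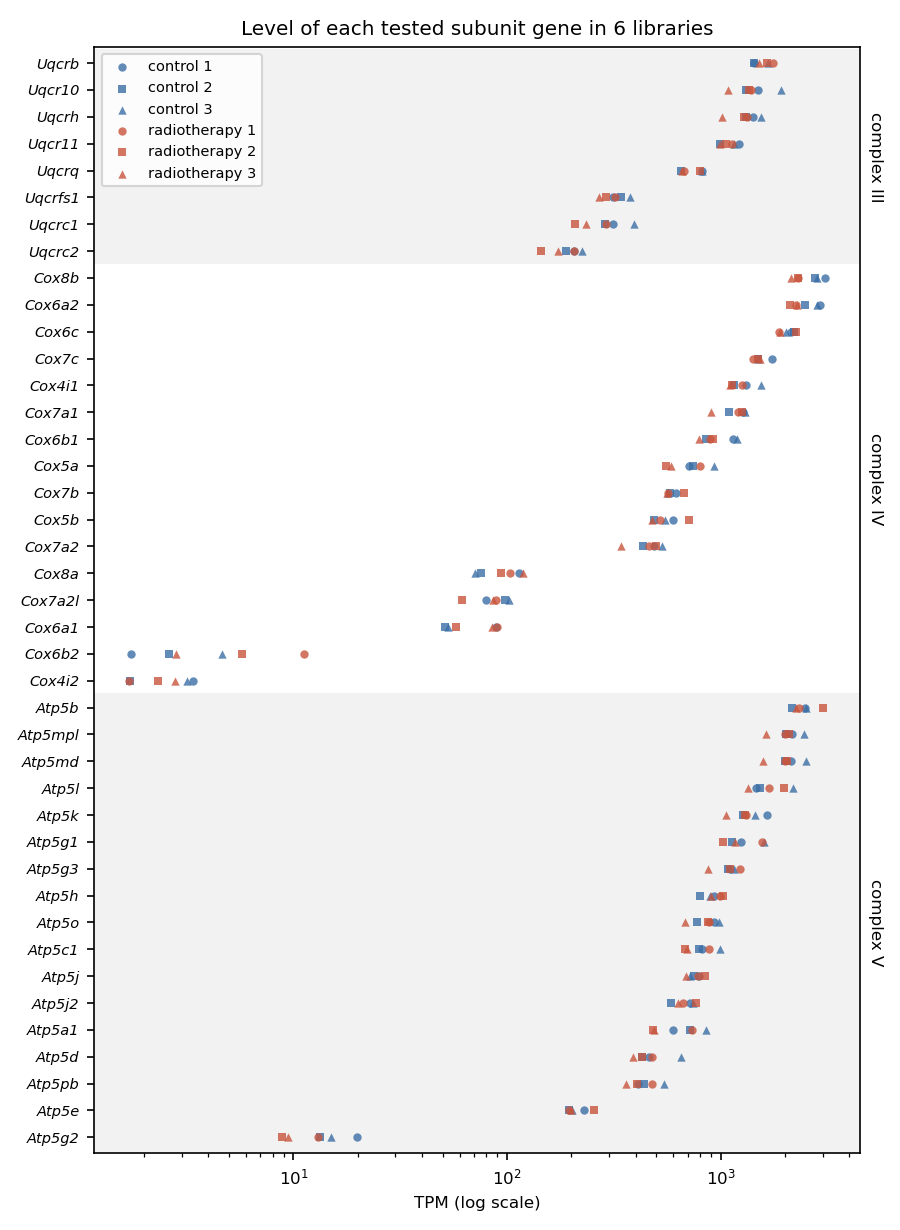
TPM of the 41 tested subunit genes on a log axis, by complex and in order of mean level, with 1 point per library (blue for control, red for radiotherapy, and circle, square and triangle for replicates 1, 2 and 3). The mean of 35 genes is over 100 TPM, while Cox4i2, Cox6b2 and Atp5g2 lie below 20 TPM.

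No member passed limma, the linear model fitted to log2(TPM + 1) over all 11375 genes tested. The count at an adjusted p of 0.05 was 0 of 41 members and 0 of all genes (0% called, lowest adjusted p over all genes 0.394), and the members' adjusted p ranged from 0.977 to 0.995. At an unadjusted p under 0.05, 1 member was lower (Cox8b) and 0 were higher, against 2.86% and 0.967% of all genes tested. The radiotherapy values lay wholly below the control values in 3 members, Cox8b, Cox6a2 and Atp5g2, which is 7.32% of 41, against 7.54% of all genes tested. They lay wholly above in 0 members, against 1.70% of all genes. Both shares of non-overlapping genes are near or below the background and are no result about the members.

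The log2 fold change, radiotherapy minus control, was below 0 in 30 of 41 members (73.2%), against 67.9% of all genes tested. Its median was −0.15 over the members and −0.11 over all genes. After median-of-ratios scaling the median of all genes was −0.00 and that of the members −0.01, with 22 of 41 members below 0. Relative to all genes, the members' median was −0.04 with all libraries, −0.17 without radiotherapy 2 and 0.19 without radiotherapy 3.

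**Figure D2:**
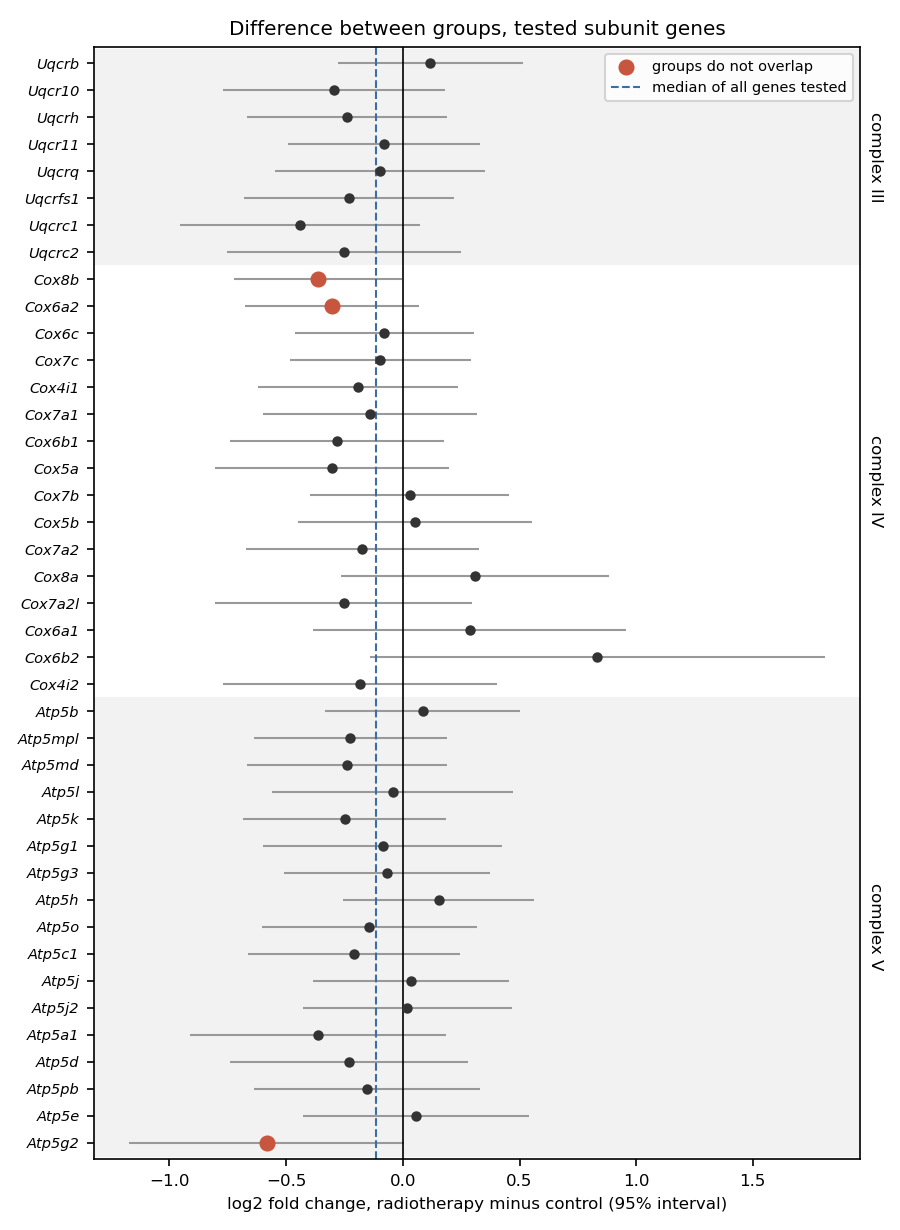
Log2 fold change of each tested member with its 95% interval from limma, in the order of the plot of levels; the dashed line is the median of all genes tested. Red points are Cox8b, Cox6a2 and Atp5g2, whose groups do not overlap, and only the interval of Cox8b ends below 0, at −0.002.

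Libraries of 1 group differed among themselves. Control 3 held the highest value of 20 members and radiotherapy 3 the lowest value of 20. The same counts over all genes tested are not given, so a trait of the members and one of the whole library cannot be told apart. Control 3 was also the library with the lowest share of mitochondrial genome transcripts, 8.93% of TPM. Radiotherapy 3 was also the library with the highest Schwann cell markers. The part of either in these counts was not tested. Control 2 held the highest value of 0 members, and radiotherapy 2 held the highest of 8 and the lowest of 9. The lowest values in radiotherapy 2 included the complex III core subunits Uqcrc1 and Uqcrc2, Cox5a, and the ATP synthase subunits Atp5a1 and Atp5c1. Its highest values included Cox5b, Cox6c, Cox7b, Atp5b, Atp5e and Atp5h, so small complex IV subunits and F1 subunits stood on both sides.

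**Figure D3:**
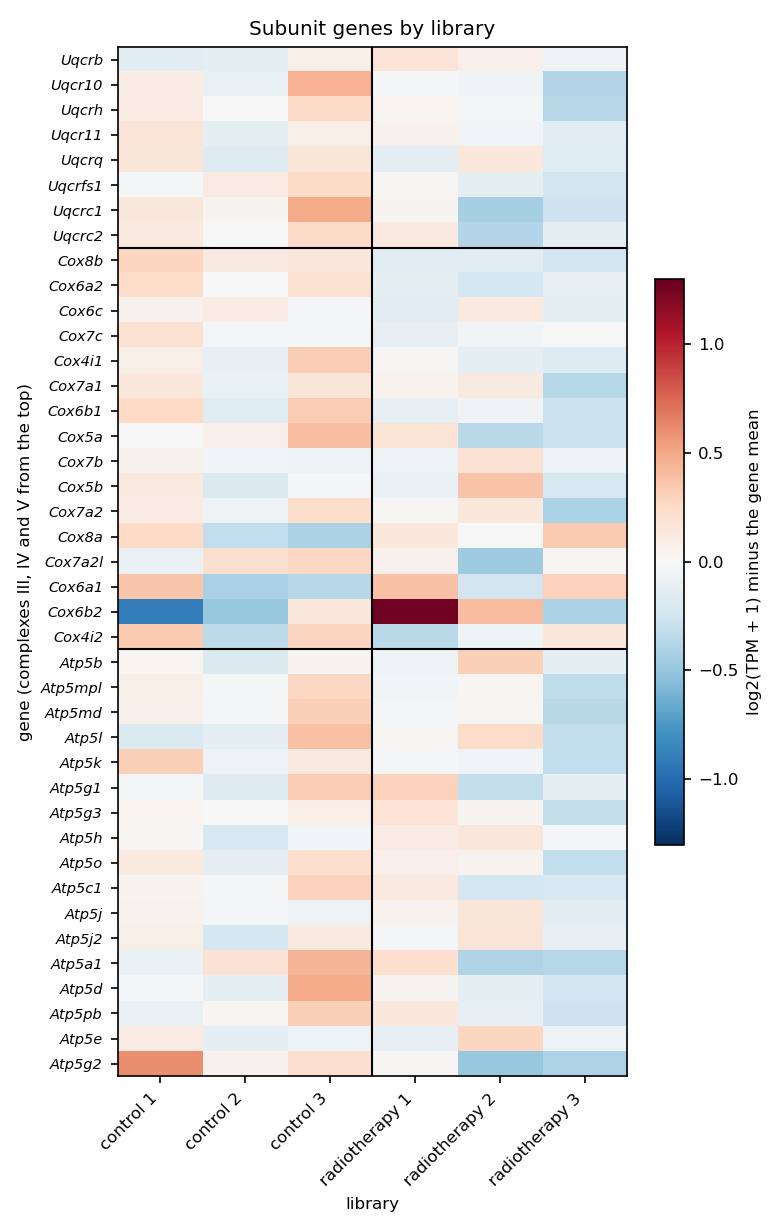
Deviation of log2(TPM + 1) from each gene's mean over 6 libraries, for the 41 tested members (rows, complexes III, IV and V from the top) and the libraries (columns). Control 3 is mostly red and radiotherapy 3 mostly blue, and radiotherapy 2 is mixed.

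Complex III had 8 members, all tested, with log2 fold changes from −0.44 to 0.12. In 7 of 8 (87.5%, against 67.9% of all genes tested) the value was below 0. Its core subunits, which carry no redox centre, had the lowest mean levels of the 8 in control and after radiotherapy alike. Uqcrc1, core subunit 1, had 313, 288 and 393 TPM in controls 1 to 3, in order, and 289, 209 and 234 TPM in radiotherapy libraries 1 to 3; all later lists of 3 values keep this order. Radiotherapy 1 lay above control 2, so the groups overlapped, and the log2 fold change of −0.44 (SE 0.23, 95% interval −0.955 to 0.074) did not pass limma (adjusted p = 0.977). Uqcrc2, core subunit 2, gave 206 ± 17.7 TPM in controls against 174 ± 30.7 TPM after radiotherapy (mean ± SD, n = 3 each).

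The catalytic Rieske iron-sulphur protein gene, Uqcrfs1, was at 344 ± 31.5 TPM in controls against 293 ± 25.3 TPM after radiotherapy, with overlapping groups. The small subunits without redox centres were more abundant. Among them Uqcrh, the hinge protein that meets cytochrome c1, was at 1426 ± 121 and 1214 ± 168 TPM, and Uqcr10 at 1580.1 ± 312 and 1279.8 ± 169.5 TPM. Uqcrb, which lies near the ubiquinone site, was the only member of the complex with a positive value, at 1508 ± 137 and 1635 ± 126 TPM (log2 fold change 0.12, SE 0.18). Levels of subunits that occur in equal number in the complex thus spanned from 174 to 1635 TPM after radiotherapy. As a whole the complex III members came to 0.728 ± 0.0795% of TPM in the control group and to 0.661 ± 0.0603% in the radiotherapy group, with overlapping groups.

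Complex IV is where the isoform pairs lie, and the promoters of some of the genes the results turn on are shown first. RefSeq promoters of build GRCm38.p6 were at hand for 33 of the 44 member symbols, as 36 entries. The 250 bases before the start site are printed, with motif matches in capitals, for Cox8b and Atp5g2, whose groups did not overlap, and for the non-muscle forms Cox8a and Cox6a1. Cox6a2, whose groups did not overlap either, had no promoter entry. Cox8b lies at chr7:140900447-140900696 and Cox8a at chr19:7217617-7217866. Cox6a1 lies at chr5:115348959-115349208 and Atp5g2 at chr15:102671048-102671297, and all 4 are on the minus strand.
Cox8b: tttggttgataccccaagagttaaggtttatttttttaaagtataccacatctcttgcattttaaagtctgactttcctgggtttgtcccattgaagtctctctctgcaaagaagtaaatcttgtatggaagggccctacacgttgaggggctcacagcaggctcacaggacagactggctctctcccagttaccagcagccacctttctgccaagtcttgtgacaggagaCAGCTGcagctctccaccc
Cox8a: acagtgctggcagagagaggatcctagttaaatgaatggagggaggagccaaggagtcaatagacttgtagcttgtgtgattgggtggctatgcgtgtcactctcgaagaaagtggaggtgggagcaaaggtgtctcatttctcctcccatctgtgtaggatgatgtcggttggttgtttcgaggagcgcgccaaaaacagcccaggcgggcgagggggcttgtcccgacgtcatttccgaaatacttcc
Cox6a1: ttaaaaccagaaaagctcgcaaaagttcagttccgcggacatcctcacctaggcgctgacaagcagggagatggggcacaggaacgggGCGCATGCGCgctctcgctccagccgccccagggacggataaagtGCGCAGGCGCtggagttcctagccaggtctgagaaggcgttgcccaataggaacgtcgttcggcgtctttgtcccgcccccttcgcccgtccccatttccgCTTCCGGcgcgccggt
Atp5g2: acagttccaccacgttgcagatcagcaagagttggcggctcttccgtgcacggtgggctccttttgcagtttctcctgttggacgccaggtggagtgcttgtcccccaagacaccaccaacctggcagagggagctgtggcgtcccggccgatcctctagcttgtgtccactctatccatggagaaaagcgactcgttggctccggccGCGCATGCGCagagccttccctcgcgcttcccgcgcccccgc

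The motifs were searched on both strands: NRF-1 (GCGCA and GCGC with any 1 base between), ETS (CCGGAAG), YY1 (AAGATGGC), MEF2 (CTA and TAG with any 4 bases between) and an E-box (CAGCTG), the last added after the values were seen. NRF-1 and the ETS factor GABP are known regulators of respiratory chain genes, and MEF2 and E-box factors of muscle genes. An NRF-1 match was in 13.9% of the 36 member entries (Atp5c1, Atp5g2, Atp5h, Atp5k and Cox6a1) against 3.74% of all 32851 promoters. An ETS match was in 22.2% of member entries against 6.91% of all. YY1 stood at 2.78% against 1.56%, MEF2 at 2.78% against 3.20%, and the E-box at 5.56% against 13.0%. No match overlapped one of another motif. Cox8b held 1 E-box match and none of the other motifs, Cox6a1 held 2 NRF-1 matches and 1 ETS match, Atp5g2 held 1 NRF-1 match, and Cox8a held none of the 5. The median GC content was 54.0% in member entries and 52.4% in all. A match describes the letters in this window and not a bound site.

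Complex IV held 2 of the 3 members whose groups did not overlap. Cox8b, the muscle form of subunit 8, was the most abundant member of the complex. It had 3089, 2775 and 2832 TPM in controls 1 to 3 and 2307, 2299.5 and 2148 TPM in radiotherapy libraries 1 to 3. All 3 radiotherapy values lay below all 3 controls, and both groups were narrow. The log2 fold change was −0.36 (SE 0.16, 95% interval −0.725 to −0.002; limma adjusted p = 0.977). It was −0.22 after median-of-ratios scaling, with overlapping groups, and −0.23 after removal of the mitochondrial genes.

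Cox6a2, the muscle form of subunit 6A, came next, at 2915, 2478 and 2833 TPM in controls against 2259.7, 2108 and 2291 TPM after radiotherapy. Again the highest radiotherapy value lay under the lowest control. Its log2 fold change was −0.30 (SE 0.17, 95% interval −0.675 to 0.070; limma adjusted p = 0.977), after median-of-ratios scaling −0.16, with overlapping groups, and after removal of the mitochondrial genes −0.17. Both genes kept separate groups after quantile normalization and after removal of the mitochondrial genes. The summed fast fibre markers were lower in the same 3 libraries, at 85528, 57086 and 83343 TPM. Singly, 5 of the 7 lay wholly below control, against 7.54% of all genes tested, while Myh1 (852 TPM in radiotherapy 2, above every control) and Tnni2 overlapped. The 7 slow fibre markers summed to 817 to 2331 TPM in control and 1498 to 1979 TPM after radiotherapy, and 0 of them had separate groups. The part of the fibre markers in the difference was not tested.

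The non-muscle partners were far less abundant, and their groups overlapped. Cox8a was at 113, 75.5 and 70.8 TPM in controls against 104, 93.9 and 119 TPM after radiotherapy. Control 1 lay above 2 of the 3 radiotherapy libraries, and the groups overlapped. The log2 fold change was 0.31 (SE 0.25), 0.52 without control 1 and 0.18 without control 3. Cox6a1 was at 88.6, 51.0 and 52.7 TPM in controls against 89.7, 57.5 and 84.7 TPM after radiotherapy (log2 fold change 0.29, SE 0.30), with 0.54 without control 1 and 0.15 without control 2. It was high in control 1 and in radiotherapy 1 and 3, and low in the other 3 libraries. White adipocyte markers, 4 of 5 tested, summed to 699, 615 and 240.1 TPM in controls and 877, 397 and 699 TPM in radiotherapy libraries. Most of that sum was Fabp4, at 684 TPM in control 1, which endothelial cells express too. Adipoq was at 9.51, 23.6 and 1.98 TPM in controls and 88.7, 12.5 and 16.02 TPM in radiotherapy libraries, so control 1 was not high in it. Their part, and that of the leukocyte markers high in control 1 and radiotherapy 3, was not tested.

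A ratio of isoforms within a library does not depend on a scaling factor of that library. The Cox8b to Cox8a ratio of TPM was 27.3, 36.8 and 40.0 in controls 1, 2 and 3 and 22.3, 24.5 and 18.0 in radiotherapy 1, 2 and 3. The groups did not overlap, and the log2 ratio was lower by 0.67 (5.08 ± 0.29 in control, 4.41 ± 0.23 after radiotherapy). A two-sided exact permutation test gave p = 0.1, the smallest that 3 against 3 samples allow, and 0.3 after Benjamini-Hochberg adjustment over the 3 pairs compared. The Cox6a2 to Cox6a1 ratio was 32.9, 48.6 and 53.8 in control and 25.2, 36.7 and 27.0 after radiotherapy. Radiotherapy 2 lay above control 1, so these groups overlapped (exact permutation p = 0.2, adjusted 0.3).

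The pair of subunit 7A gave another picture. Cox7a1, the muscle form, was at 1279, 1094 and 1299.5 TPM in controls against 1204, 1258 and 898 TPM after radiotherapy. Cox7a2, the non-muscle form, was at 488, 433 and 530.4 TPM and at 460.1, 498 and 340.3 TPM. Both were lowest in radiotherapy 3 and highest in control 3. Their ratio was 2.62, 2.53 and 2.45 in control and 2.62, 2.52 and 2.64 after radiotherapy, the tightest of the 3 ratios (exact permutation p = 0.5). Unlike the forms of subunits 6A and 8, the muscle form of 7A was less than 3-fold above its partner in every library. Whether the 3 ratios differ in their response was not tested.

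**Figure D4:**
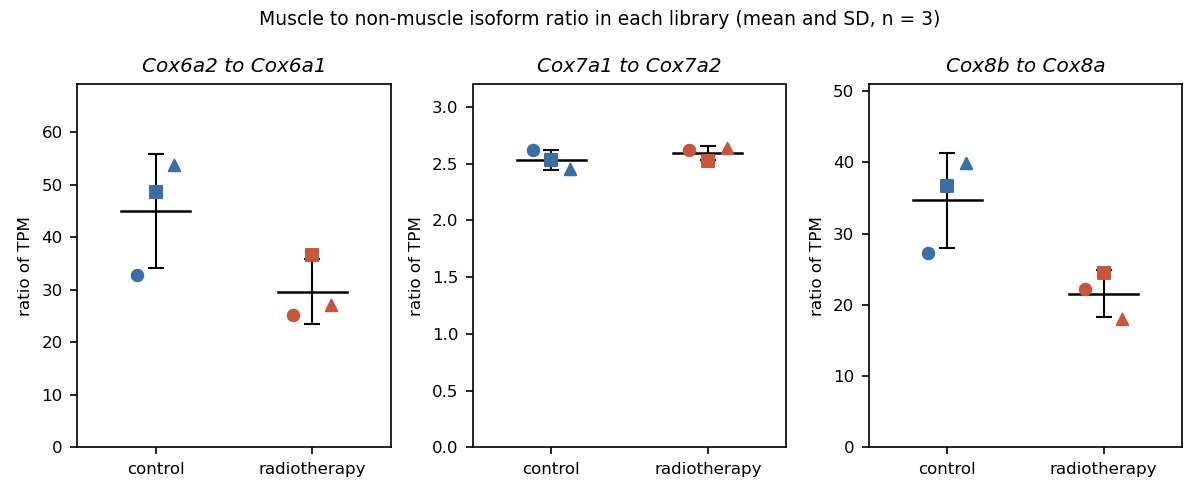
Ratio of muscle to non-muscle isoform TPM in each library (circle, square and triangle are replicates 1, 2 and 3), with mean and SD (n = 3 each) and axes from 0. The radiotherapy points of Cox8b to Cox8a all lie below the control points, those of Cox6a2 to Cox6a1 overlap with control 1, and those of Cox7a1 to Cox7a2 lie at the control level.

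Among the other complex IV genes, Cox4i1, the common form of the subunit that binds next to the catalytic core, was at 1308, 1155 and 1551 TPM in controls against 1254, 1137 and 1104 TPM after radiotherapy (log2 fold change −0.19, SE 0.19). That value was −0.049 after median-of-ratios scaling and −0.080 without control 3. Its lung-enriched form Cox4i2 was at 3.37, 1.72 and 3.17 TPM and at 1.70, 2.31 and 2.78 TPM. Both pairs of groups overlapped. Cox6b2, a form known from testis, was at 1.73, 2.61 and 4.63 TPM in controls against 11.2, 5.74 and 2.82 TPM after radiotherapy. Its log2 fold change was 0.83 (SE 0.43, 95% interval −0.141 to 1.81), 0.41 without radiotherapy 1 and 1.25 without radiotherapy 3. Radiotherapy 3 lay under control 3, so the groups overlapped. Its common partner Cox6b1 was at 1064 ± 183 and 867 ± 70.8 TPM. Cox7a2l, which links complexes into supercomplexes, was at 93.3 ± 11.9 and 78.7 ± 15.2 TPM with overlapping groups.

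Cox5a, Cox5b, Cox6c, Cox7b and Cox7c, further small subunits, had log2 fold changes from −0.30 to 0.05 and overlapping groups. Over the complex, 16 of 19 members were tested and 11 were below 0 (68.8%, against 67.9% of all genes tested). The complex IV members summed to 1.63, 1.45 and 1.60% of TPM in controls and 1.39, 1.41 and 1.29% after radiotherapy, without overlap. All TPM includes the mitochondrial genome transcripts, at 10.4, 13.7 and 8.93% in controls and 18.9, 22.5 and 15.1% after radiotherapy. The sums were not rescaled without those transcripts, so the separation holds for shares of all TPM only and may depend on them. Without Cox8b and Cox6a2, a choice made after their values were seen, the sums were 1.03, 0.927 and 1.04% against 0.928, 0.973 and 0.848%, and the groups overlapped.

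In the ATP synthase, 17 of 18 members were tested, with log2 fold changes from −0.58 to 0.15. Of these, 12 were below 0 (70.6%, against 67.9% of all genes tested). The catalytic F1 head is built of Atp5a1 (alpha) and Atp5b (beta), which occur in equal number, around the rotating shaft with Atp5c1 (gamma), Atp5d (delta) and Atp5e (epsilon). Atp5b was at 2481, 2149 and 2498 TPM in controls against 2341, 3020.0 and 2250.4 TPM after radiotherapy, highest in radiotherapy 2. Atp5a1 was at 596, 718 and 858 TPM in controls against 734, 482 and 488 TPM after radiotherapy, lowest in radiotherapy 2. The mRNA of beta was therefore 2.91 to 4.16 times that of alpha in controls and 3.19, 6.26 and 4.61 times in radiotherapy 1, 2 and 3, with overlapping groups. The shaft genes had fold changes of −0.21, −0.23 and 0.06 on the log2 scale.

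The peripheral stalk, which holds the head still, consists of Atp5pb, Atp5h, Atp5j and Atp5o. Its log2 fold changes lay between −0.15 and 0.15. Atp5h, subunit d of the stalk, was at 932, 800.4 and 897 TPM in controls against 994, 1024 and 904 TPM after radiotherapy. Radiotherapy 3 lay below control 1, and the value of 0.15 (SE 0.18) did not pass limma (adjusted p = 0.979). The value was 0.30 after median-of-ratios scaling. Atp5h was the 1 member (2.44% of 41) whose radiotherapy values lay wholly above control after quantile normalization and after removal of the mitochondrial genes, against 5.21% and 4.02% of all genes under those settings.

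The proton-conducting Fo part turns on a ring of c subunits, whose genes Atp5g1, Atp5g2 and Atp5g3 encode the same mature protein behind different import signals. Atp5g1 was at 1245, 1133 and 1594 TPM in controls against 1567, 1025 and 1169 TPM after radiotherapy. Atp5g3 was at 1104, 1083 and 1155 TPM and at 1229, 1110.3 and 875 TPM. These 2 genes gave nearly all c subunit mRNA, 53.7 ± 3.57% and 45.7 ± 3.50% in control, and 53.5 ± 4.97% and 46.1 ± 5.00% after radiotherapy.

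Atp5g2 was scarce, at 19.9, 13.4 and 15.0 TPM in controls against 13.0, 8.82 and 9.42 TPM after radiotherapy. Its groups did not overlap, though radiotherapy 1 lay only just under control 2 (log2 fold change −0.58, SE 0.26, 95% interval −1.173 to 0.004; limma adjusted p = 0.977). They overlapped under each of the 3 other scalings. Its share of c subunit mRNA was 0.842, 0.600 and 0.544% in control and 0.462, 0.411 and 0.459% after radiotherapy, again without overlap. The remaining Fo genes, Atp5k, Atp5l, Atp5j2, Atp5mpl and Atp5md, which encode small membrane subunits, had values between −0.25 and 0.02. Atpif1, the inhibitor of the ATP synthase and no member by its symbol here, was at 59.7 ± 2.96 TPM in controls against 59.9 ± 4.77 TPM after radiotherapy.

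The subunits encoded by the mitochondrial genome stood higher relative to their nuclear partners after radiotherapy. All transcripts of that genome together made up 10.4, 13.7 and 8.93% of TPM in controls and 18.9, 22.5 and 15.1% after radiotherapy, also without overlap. The ratios given here cannot tell a trait of these complexes from that wider difference. In TPM, for each of mt-Cytb, mt-Co1, mt-Co2, mt-Co3, mt-Atp6 and mt-Atp8 the lowest radiotherapy library lay above the highest control, which held for 1.70% of all genes tested. After median-of-ratios scaling this held for 3 of the 6, against 5.14% of all genes, and after quantile normalization for 3 of the 6, against 5.21%. Their TPM-based log2 fold changes ranged from 0.43 to 0.98. With limma 6 of 6 were higher at an unadjusted p under 0.05, against 0.967% of all genes tested. After adjustment over all genes 0 of 6 passed (lowest adjusted p = 0.977). For complex IV, the summed TPM of mt-Co1, mt-Co2 and mt-Co3 was 1.76, 1.82 and 1.65 times that of the nuclear members in control and 2.99, 3.41 and 2.35 times after radiotherapy. For complex III, mt-Cytb was 1.09, 1.75 and 0.815 times the nuclear sum in control and 2.14, 3.21 and 2.30 times after radiotherapy. For the ATP synthase, mt-Atp6 was 0.135, 0.201 and 0.0949 times the nuclear sum in control and 0.203, 0.241 and 0.235 times after radiotherapy. The groups did not overlap in any of these 3 ratios, although control 2 and radiotherapy 1 nearly met for the ATP synthase. mt-Atp8 was left out of the last ratio because it overlaps mt-Atp6, and reads of the 2 genes cannot be divided with certainty.

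**Figure D5:**
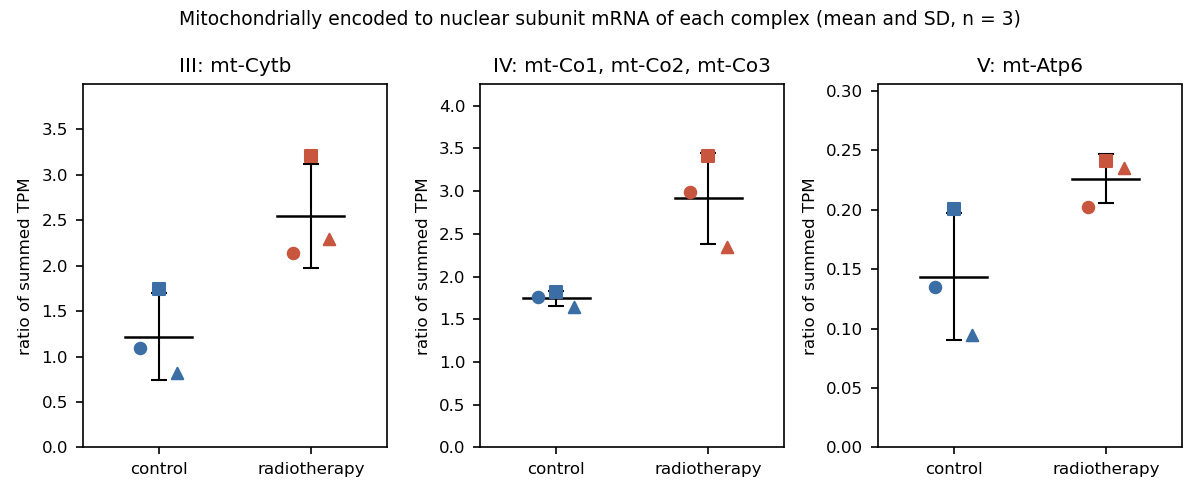
Summed TPM of the mitochondrially encoded subunits named above each panel, divided by the summed TPM of the nuclear members of that complex, in each library with mean and SD (n = 3 each) and axes from 0. Every radiotherapy point lies above every control point, by the narrowest margin for the ATP synthase (0.201 in control 2, 0.203 in radiotherapy 1).

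The genes that supply and assemble the complexes showed no call either. Cyc1 was at 278 ± 27.0 TPM in controls against 237 ± 45.4 TPM after radiotherapy, and Cycs, the mobile cytochrome c, at 109 ± 16.9 and 111 ± 21.1 TPM. Of 37 assembly factors listed, 34 were in the table under those names and 33 were tested. In 24 of these (72.7%, against 67.9% of all genes tested) the log2 fold change was below 0, with a median of −0.14. Of the 33, 0 passed limma, at an unadjusted p under 0.05 as well as after adjustment. In 3 (9.09%, against 7.54% of all genes) the radiotherapy values lay wholly below the controls, a share near the background. These were Cox10, a haem A synthesis enzyme (8.14 ± 0.384 and 5.92 ± 1.22 TPM), Cox16 (183 ± 13.9 and 156 ± 4.19 TPM) and Tmem242 (102 ± 4.37 and 70.2 ± 18.7 TPM), the last 2 being assembly factors of complex IV and of the ATP synthase. Ndufa4, a subunit also placed in complex IV, had a log2 fold change of 0.00 (1683 ± 65.8 and 1692 ± 206 TPM).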

How the data were processed

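Total RNA was turned into TruSeq libraries, as the protocol in the labels states. TPM values for 57010 Ensembl gene rows were deposited by the authors, with 1 column per sample, 3 control and 3 radiotherapy. HISAT2, StringTie, RSEM and mm9 are named, per the submitters' processing notes, with no versions and no order. The annotation was not given in the sources used here, nor was the strand setting. Each column summed to 1000000 within 0.64, so depth and counting error are unknown. At most 4.16% of nonzero values were equal in any pair of libraries, and no 2 columns were alike. Members and related rows can share reads with near-identical copies (Cox7c-ps1 was at 12.3 to 32.3 TPM), and how such reads were divided is unknown.

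The 11375 genes that reached 1 TPM in 3 or more samples were tested with limma 3.58.1 in R 4.3.3 (eBayes with trend, two-sided, group as the only term) on log2(TPM + 1). The pseudocount of 1 understates fold changes of low genes. P-values were adjusted by Benjamini-Hochberg over all genes tested. Log2 isoform ratios, with the same pseudocount, were compared by exact permutation. Sums and shares are descriptions with no test. Values per library were given for the isoform pairs, Cox4i1 and Cox4i2, the c subunit genes and the 4 members of smallest p in each direction; Atp5a1 and Atp5b were added after their values were seen, other members were given by range, mean and count, and partner, marker and assembly genes came from fixed lists. The members and lists were chosen with earlier results of these data known. Promoters are RefSeq's, build GRCm38.p6, and were used only for sequence. The processing notes name mm9, while the row symbols and identifiers come from a later annotation, so the build of the values is not settled. Alternatives changed the scaling (median-of-ratios, quantile, or TPM rescaled without the mitochondrial genes), the pseudocount (0.1), the filter (none or 5 TPM), limma's trend and the replicate block, or left out each sample in turn. Figures used matplotlib 3.10.9.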

Additional observations from a re-analysis of the deposited data

How the results depend on the processing

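The count of members called by limma was 0 under every alternative run, and 0 to 2 members had an unadjusted p under 0.05. The members' median log2 fold change, −0.15, was −0.011 after median-of-ratios scaling, −0.021 after quantile normalization and −0.021 after removal of the mitochondrial genes, in step with the median of all genes. The count of members with radiotherapy wholly below control, 3, was 0 after median-of-ratios scaling (5.54% of all genes) and 2, or 4.88%, after quantile normalization (5.22%) and after removal of the mitochondrial genes (3.85%). These scalings were tried on this count, and on that of the mitochondrially encoded subunits, after the data were seen. Among 14 named members, 3 changed sign under some alternative and 11 under none. Cox7a1 was 0.0036 after median-of-ratios scaling and 0.022 after quantile normalization, and from −0.23 to 0.012 with 1 library left out. Atp5g1 was 0.056, 0.072 and 0.047 after median-of-ratios scaling, quantile normalization and removal of the mitochondrial genes, and from −0.26 to 0.055 with 1 library left out. Atp5g3 was 0.074, 0.077 and 0.065 under those 3 scalings, and from −0.18 to 0.069 with 1 library left out. With 1 library left out, Cox7a2 ranged from −0.28 to −0.0095, Cox4i2 from −0.40 to −0.054 and Atp5h from 0.089 to 0.21. The isoform ratios kept their sign under the alternatives run. The labels state no pairing of samples by replicate number. Deviations of same-numbered samples from their group means had correlations of −0.059, 0.024 and −0.110 for numbers 1, 2 and 3. With 3 samples per group these values cannot exclude a pairing. With the replicate block 0 members were called and the median stayed −0.15. The Cox8b to Cox8a difference was then −0.67 (exact sign-flip permutation p = 0.25, the smallest 3 pairs allow).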

Other observations

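Markers of brown fat were looked at because Cox8b and Cox7a1 are also known from brown adipocytes. Ucp1, the uncoupling protein of those cells, was listed at 0.06 TPM or less in every library, and Dio2 at 0.54 TPM or less. Elovl3 was at 0.25, 0.35 and 0.56 TPM in controls and 0.76, 0.64 and 0.57 TPM in radiotherapy libraries. Its radiotherapy values lay wholly above control, as for 1.70% of all genes tested, but all were below 1 TPM and it was not tested. Cidea, which white and brown adipocytes can express, was at 10.99 TPM in radiotherapy 1 and between 0.28 and 1.68 TPM in the other 5 libraries. Radiotherapy 1 was also the library with the highest Cox6b2 value, 11.2 TPM, and the highest sum of white adipocyte markers, 877 TPM; these coincidences were noticed after the values were seen and were not tested.

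mt-Atp8 was listed at 36454, 61162 and 32054 TPM in controls and 85174, 92503 and 65215 TPM after radiotherapy, far above mt-Atp6, with which it shares 1 transcript, at 2446, 3352 and 1942 TPM and 3699, 4420.4 and 3511 TPM. With mt-Atp8 counted in, the mitochondrial to nuclear ratio of the ATP synthase was 2.14, 3.86 and 1.66 in controls and 4.87, 5.28 and 4.59 after radiotherapy. The ratio thus kept separate groups but depended on mt-Atp8 for its size. How the deposited values came to differ so between these overlapping genes was not tested.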
